A study of Mus musculus with 4 samples.

Results

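Cyclins are the regulatory subunits of cyclin-dependent kinases, and the 10 genes described here encode the mouse cyclins of the A, B, D and E classes: Ccna1, Ccna2, Ccnb1, Ccnb2, Ccnb3, Ccnd1, Ccnd2, Ccnd3, Ccne1 and Ccne2. The rule takes these symbols and uses no measured value, although the family was picked with earlier results of these data known, and all 10 were present among the 23980 genes of the deposited expression tables. The tables hold polyA(+) RNA-seq of spermatocytes purified by FACS at the leptotene and zygotene (L/Z) stages, when chromosomes begin to pair, from F1 hybrid mice of C57BL/6J and MSM/Ms at 3 to 4 weeks of age. The study asked what the piRNA system and DNA methylation each contribute to the silencing of retrotransposons in male germ cells. It used the loss of either of 2 genes: Pld6, which acts in piRNA production, and Dnmt3l, a cofactor of de novo DNA methylation. In F1 hybrids it examined whether nearby retrotransposons affect the induction of genes.

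There were 4 libraries, 1 for each genotype. The 2 controls were a Dnmt3L heterozygote, which carries 1 mutant Dnmt3l allele, and a Pld6 WT, and the mutants were a Dnmt3L KO and a Pld6 KO. The Dnmt3L heterozygote and Dnmt3L KO are called the Dnmt3L line below, and the Pld6 WT and Pld6 KO the Pld6 line. Cre drivers or transgenes are not given in the labels, nor is the number of animals behind a library. According to the study, testes of both mutants lack germ cells beyond zygotene at this age whereas control testes hold them, which limits how alike the sorted fractions can be. With 1 library per mutant, a difference between a mutant and the controls has no replicate check, and spread can only be seen between the 2 controls, which also differ in line.

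The libraries held 30439943 to 63875934 fragments assigned to genes. Pld6 was at 17.2 FPKM in the Dnmt3L heterozygote and 8.55 in the Dnmt3L KO, and at 19.5 in the Pld6 WT and 0.334 in the Pld6 KO, where 14 fragments remained. Dnmt3l was low throughout, at 1.27, 0.980 and 0.432 FPKM in the Dnmt3L heterozygote, Pld6 WT and Pld6 KO, and no fragment was counted in the Dnmt3L KO. Both mutant libraries thus carried the lowest level of the gene their label names. The 16 L/Z markers, such as Sycp3 and Dmc1, had median levels of 92.2, 188, 60.4 and 107 FPKM in the Dnmt3L heterozygote, Pld6 WT, Dnmt3L KO and Pld6 KO, so the labelled cell type was present in each. The median log2 change of these markers from the own-line control was -0.69 in the Pld6 KO and -0.62 in the Dnmt3L KO. Markers of other cells differed between the libraries as well. The 12 Sertoli cell markers had median levels of 206 and 252 FPKM in the Dnmt3L heterozygote and Dnmt3L KO against 7.69 and 20.4 in the Pld6 WT and Pld6 KO, and markers of later germ cells were higher in both controls than in both mutants (values are given with Ccna1). The Pld6 WT had the lowest medians of somatic markers. They were 1.39 FPKM over 7 Leydig and 4.24 over 8 peritubular and vascular genes, against 17.6 to 37.6 and 6.72 to 16.7 in the other libraries. Within the latter list, Acta2, Myh11, Cnn1 and Tagln were lowest in the Pld6 WT. The vascular genes Pecam1, Cdh5, Kdr and Tek were not.

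In the cell cycle, D cyclins with CDK4 or CDK6 start the phosphorylation of the retinoblastoma protein in G1, E cyclins with CDK2 act at the entry into S phase, A cyclins act in S phase and G2, and B cyclins with CDK1 drive the entry into division. Spermatogonia use this machinery to multiply, and spermatocytes then replicate their DNA once before a long meiotic prophase. Several cyclins have members that are largely restricted to the germ line: Ccna1 is known from late meiotic prophase in the male, where it is needed for the completion of meiosis, and Ccnb3 is known from early meiotic prophase.

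Promoter sequences are shown for the cyclins on which the results turn, Ccna1 and the B cyclins, because they differ in the short elements that cell cycle promoters are known for. The windows hold the 250 bases before and the 30 bases after a RefSeq transcription start (GRCm38.p6, the mm10 coordinates), 5′ to 3′ on the minus strand, which is the coding strand of all 4 genes. Capitals mark CCAAT or its reverse complement ATTGG, the motif TTTGAA or its reverse complement TTCAAA, as well as the hexamer TTTAAA, which reads the same on both strands; none of the marked matches overlap.
Ccna1, chr3:55055026-55055305: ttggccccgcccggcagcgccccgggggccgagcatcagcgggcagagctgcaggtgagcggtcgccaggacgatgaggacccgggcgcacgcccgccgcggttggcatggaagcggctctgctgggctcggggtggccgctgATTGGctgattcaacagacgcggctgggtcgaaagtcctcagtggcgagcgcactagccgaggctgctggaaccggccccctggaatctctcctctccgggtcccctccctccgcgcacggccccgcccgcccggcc
Ccnb1, chr13:100786457-100786736: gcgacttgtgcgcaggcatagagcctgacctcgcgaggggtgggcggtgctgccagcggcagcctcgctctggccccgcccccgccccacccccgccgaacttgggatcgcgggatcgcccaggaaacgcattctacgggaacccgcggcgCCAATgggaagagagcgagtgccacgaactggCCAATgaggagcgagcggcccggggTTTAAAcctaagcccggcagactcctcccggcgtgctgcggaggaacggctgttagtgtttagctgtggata
Ccnb2, chr9:70421525-70421804: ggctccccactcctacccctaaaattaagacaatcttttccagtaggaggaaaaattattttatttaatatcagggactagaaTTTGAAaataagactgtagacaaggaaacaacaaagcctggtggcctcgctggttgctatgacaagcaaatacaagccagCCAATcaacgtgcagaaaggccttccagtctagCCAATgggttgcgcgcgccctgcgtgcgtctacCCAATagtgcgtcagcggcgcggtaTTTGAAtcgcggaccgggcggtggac
Ccnb3, chrX:7041590-7041869: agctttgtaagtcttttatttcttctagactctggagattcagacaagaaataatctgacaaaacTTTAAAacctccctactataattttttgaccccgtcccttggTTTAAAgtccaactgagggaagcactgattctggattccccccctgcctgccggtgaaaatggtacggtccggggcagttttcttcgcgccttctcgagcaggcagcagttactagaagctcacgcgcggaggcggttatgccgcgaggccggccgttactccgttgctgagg
The Ccnb2 window held 3 CCAAT matches, beginning at -87, -54 and -21 from the start, and TTTGAA at -167 and at 5. The Ccnb1 window held 2 CCAAT matches, at -99 and -67, and TTTAAA at -42. The Ccna1 window held 1, at -107, in the reverse orientation, and the Ccnb3 window held none but had TTTAAA at -185 and -143. The Ccna1 window lies wholly inside the bounds of the gene, 55045469 to 55057634, so its start is not the outermost one. Those of the B cyclins extend past the bounds of their genes, so the windows are not fully alike. Among 32817 RefSeq promoter windows of the same length, 36.1% held at least 1 CCAAT on either strand, 11.1% at least 2 and 3.19% at least 3, 17.2% held TTTGAA and 12.8% TTTAAA. A match describes the letters of the window and is not a binding site. Of the 10 cyclins, 6 were found in the promoter table, and Ccna2, Ccnd1, Ccnd2 and Ccne2 were not.

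Levels are given in FPKM, fragments per kilobase of transcript scaled to the size of the library, which is a scale per length and so can be compared between genes within a library. Averaged over the 2 controls, Ccnb1 was highest at 90.6 FPKM, followed by Ccnb2 (67.3), Ccna2 (61.7), Ccnb3 (34.5), Ccnd1 (32.7), Ccne2 (26.6), Ccna1 (19.7), Ccne1 (15.0), Ccnd3 (14.7) and Ccnd2 (9.07). The control ranges overlapped in 8 of the 9 neighbouring pairs of this order, and only Ccnd3 and Ccnd2 were separate, so the exact order among the others did not stand above the spread between the controls. Ccnb1 ranked first in every library but the Dnmt3L heterozygote, where it came second after Ccnb2 (58.15 against 58.39 FPKM). Ccna1 ranked 4th in the Dnmt3L heterozygote and 9th in the Pld6 WT, and was the lowest of the 10 in both mutants.

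**Figure D1:**
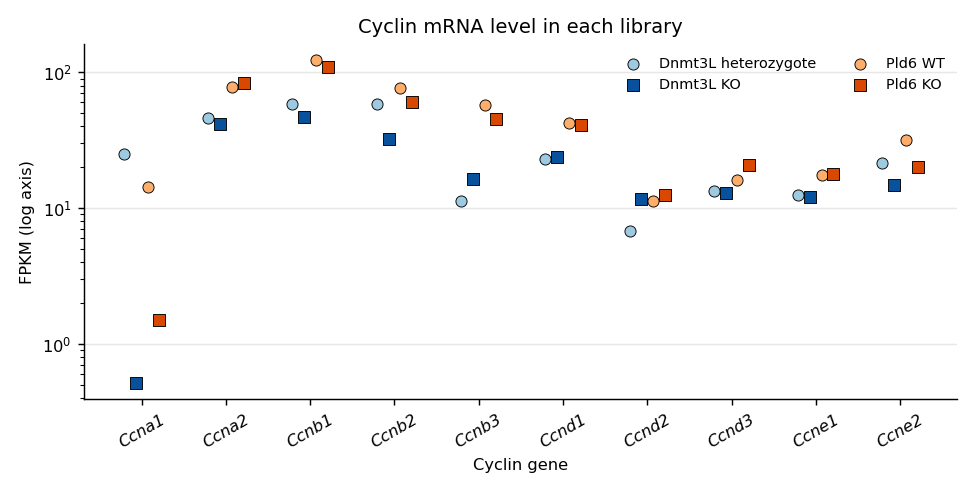
Levels of the 10 cyclins in FPKM on a log axis, 1 point per library, with controls and mutants of the 2 lines marked. Ccna1 is at 24.98 and 14.33 FPKM in the controls and at 0.510 and 1.503 in the mutants, and the other 9 cyclins show smaller gaps, such as Ccnb2 at 32.11 FPKM in the Dnmt3L KO against 58.39 and 76.20 in the controls.

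Ccna1 was the cyclin that differed between mutants and controls. The Dnmt3L heterozygote had 24.98 FPKM, the Pld6 WT 14.33, the Dnmt3L KO 0.510 and the Pld6 KO 1.503. The mutant values lay far below both controls, and the fold between the mutants and the nearer control exceeded the fold between the controls themselves. Relative to the lower control it was 28.1-fold lower in the Dnmt3L KO and 9.53-fold lower in the Pld6 KO. The mutant values were 2.60% and 7.65% of the control mean. The transcripts were still detected in both mutants: 33 fragments in the Dnmt3L KO gave a 95% Poisson interval of 0.351 to 0.717 FPKM, and 65 fragments in the Pld6 KO gave 1.16 to 1.92 FPKM. These intervals cover counting error only.

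A gene was called when its FPKM + 1 in the mutant was more than 2-fold above or below that of both controls, a rule with no p-value. By this rule Ccna1 was called lower in both mutants and was the only one of the 10 cyclins called in either. Of all 23980 genes, 5.41% were called lower and 1.04% higher in the Pld6 KO, and 5.78% lower and 2.14% higher in the Dnmt3L KO. Of the 14416 genes with a mean of at least 1 FPKM, as all 10 cyclins had, the shares were 8.57% and 1.51% in the Pld6 KO and 9.16% and 3.29% in the Dnmt3L KO, and 1 lower call among 10 cyclins is a small count to read against these shares. The log2 change of Ccna1, computed as the log2 ratio of FPKM + 1 to the control mean, was -3.04 in the Pld6 KO and -3.77 in the Dnmt3L KO. Against the control of its own line alone the change was -2.61 and -4.10.

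Tests that rest on the spread between the 2 controls gave different calls for Ccna1. In edgeR's quasi-likelihood test, with 1 residual degree of freedom, the adjusted p was 0.221 for the Pld6 KO and 0.122 for the Dnmt3L KO (unadjusted p of 0.00809 and 0.00245), and no gene of 18657 passed in either comparison. Ccna1 was the only cyclin with an unadjusted p below 0.05 in either, and over all genes 102 higher and 1383 lower in the Pld6 KO and 203 higher and 1440 lower in the Dnmt3L KO had one. DESeq2 on the same counts gave Ccna1 an adjusted p of 0.00120 and 7.30e-07, and called no other cyclin; it called 15 genes (0.0807%) higher and 949 (5.1%) lower in the Pld6 KO and 17 (0.0977%) higher and 925 (5.31%) lower in the Dnmt3L KO. A further test rests instead on the difference of the mutant change between the lines. This edgeR model with mutant and line as additive terms, chosen after the data were seen, assumes the same mutant change in both lines. In it Ccna1 was lower in the mutants by a log2 change of -4.44 with an adjusted p of 0.00343, where 6.32% of genes passed as lower and 0.959% as higher, and it was the only cyclin to pass. An exact permutation test of 2 mutants against 2 controls cannot give a two-sided p below 0.333.

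Markers of later germ cells moved with Ccna1. The 10 pachytene markers, among them the testis-specific enzymes Ldhc and Pgk2, had median levels of 61.7, 36.4, 2.26 and 2.52 FPKM in the Dnmt3L heterozygote, Pld6 WT, Dnmt3L KO and Pld6 KO, and 9 of 10 were called lower in each mutant. The 14 spermatid markers, among them the protamines Prm1 and Prm2, had median levels of 57.4, 14.1, 0.590 and 0.875 FPKM in the same order, with 13 of 14 called lower in the Pld6 KO and 12 of 14 in the Dnmt3L KO. Both lists, like Ccna1, were highest in the Dnmt3L heterozygote, intermediate in the Pld6 WT and low in both mutants. Of other somatic markers, 1 of 7 Leydig, 0 of 8 macrophage and 3 of 8 peritubular and vascular genes were called higher in the Pld6 KO, and 3, 2 and 0 in the Dnmt3L KO, with none lower. The part of other cells in the Ccna1 difference was not tested, and in bulk RNA fewer cells of a type cannot be told apart from less RNA per cell. The 3 genes whose pattern over the 4 libraries was closest to that of Ccna1 were the spermatid kinase gene Tssk1, Med9os and Fam50b, at distances of 0.113, 0.166 and 0.188. The distance is Euclidean, taken between log2(FPKM + 1) profiles centred on their means, over 14415 other genes with a mean of at least 1 FPKM, and this search was added for Ccna1 after its values were seen.

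Ccna2, the A cyclin of dividing somatic and germ cells, did not share this pattern. It was at 46.06 FPKM in the Dnmt3L heterozygote and 41.92 in the Dnmt3L KO, and at 77.44 in the Pld6 WT and 83.39 in the Pld6 KO. Both libraries of the Pld6 line were above both of the Dnmt3L line, and each mutant lay close to the control of its own line, with log2 changes of 0.11 in the Pld6 KO and -0.13 in the Dnmt3L KO. The make-up of the A class shifted with it. Ccna1 formed 35.2% and 15.6% of summed A cyclin FPKM in the Dnmt3L heterozygote and Pld6 WT, against 1.20% and 1.77% in the Dnmt3L KO and Pld6 KO. The genes with the pattern closest to Ccna2 were Cdk11b, Bai2 and Zfp217, at distances of 0.0311, 0.0502 and 0.0506. Ccna1 and Ccna2 both lie on chromosome 3, at 55045469 to 55057634 and at 36564865 to 36573038.

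**Figure D2:**
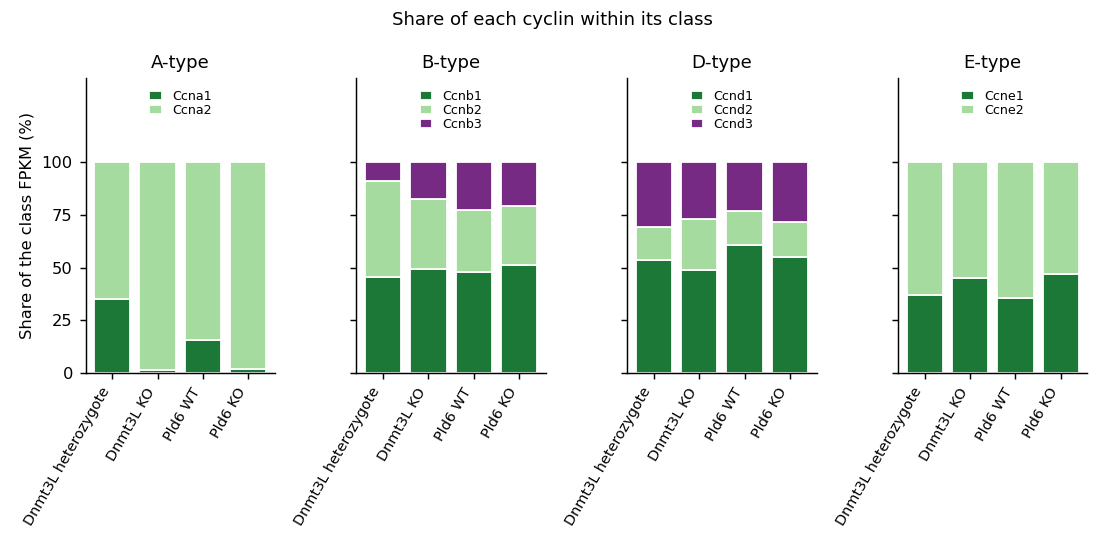
Share of each member in the summed FPKM of its class, in percent, for classes A, B, D and E in the 4 libraries (stacked bars from 0 to 100). The Ccna1 part of the A class is 35.2% and 15.6% in the controls and 1.20% and 1.77% in the mutants, and the Ccnb3 part of the B class is smallest, at 8.82%, in the Dnmt3L heterozygote.

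The B cyclins were the most abundant class, with 44.9% to 54.9% of the summed cyclin FPKM of a library. Ccnb1 and Ccnb3 differed between lines, while Ccnb2 had differences of like size between lines and between mutants and controls, neither of which passed (given below). Ccnb1, on chromosome 13 at 100778739 to 100786486, encodes the main partner of CDK1 at the entry into division. It was at 58.15 FPKM in the Dnmt3L heterozygote and 47.12 in the Dnmt3L KO, and at 123.03 in the Pld6 WT and 109.79 in the Pld6 KO. Both Pld6 line libraries were above both Dnmt3L line libraries, and each mutant was slightly below its own control, with log2 changes of -0.16 and -0.30 in the Pld6 KO and Dnmt3L KO. After division by the L/Z marker mean, a scale described with the line comparison, these changes were 0.52 and 0.33. The marker mean was lower in each mutant than in its own control, so this division raises mutant levels whatever the gene. Genes with near-identical copies elsewhere in the genome, which Ccnb1 is known to have, can share fragments with them, so its level is uncertain to that extent.

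Ccnb2, on chromosome 9 at 70407689 to 70421554, encodes the other mitotic B cyclin. It was at 58.39 FPKM in the Dnmt3L heterozygote and 32.11 in the Dnmt3L KO, and at 76.20 in the Pld6 WT and 60.16 in the Pld6 KO. It was lower in each mutant than in the control of its line, by a log2 change of -0.34 in the Pld6 KO and -0.84 in the Dnmt3L KO. The Pld6 KO value lay between the 2 controls, however, and in the additive model the mutant change of -0.64 had an adjusted p of 0.229 and the line difference of 0.64 one of 0.161. After division by the L/Z marker mean, the own-line changes of Ccnb2 were 0.34 in the Pld6 KO and -0.22 in the Dnmt3L KO.

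Ccnb3, on the X chromosome at 6979652 to 7041635, had the widest difference between the controls of all 10 cyclins. It was at 11.27 FPKM in the Dnmt3L heterozygote and 16.50 in the Dnmt3L KO, and at 57.80 in the Pld6 WT and 44.94 in the Pld6 KO. The heterozygote was lower than the Pld6 WT by a log2 difference of -2.26, and the mutants lay between the 2 controls. Relative to the own-line control Ccnb3 had a log2 change of -0.36 in the Pld6 KO and 0.51 in the Dnmt3L KO, opposite in sign. After division by the L/Z marker mean, a scale described with the line comparison, both changes were above 0, at 0.32 and 1.13. Ccnb3 made up 8.82%, 22.5%, 17.2% and 20.9% of B cyclin FPKM in the Dnmt3L heterozygote, Pld6 WT, Dnmt3L KO and Pld6 KO. The genes closest to it in pattern, sought after its values were seen, were Pet2, the centromere gene Cenpf and the oocyte transcription factor gene Lhx8, at distances of 0.201, 0.234 and 0.372. For Ccnb1 they were Tnfrsf13c, Zswim4 and Uap1l1, at 0.0185, 0.0420 and 0.109. Tnfrsf13c was near the floor, at 0.421 to 2.69 FPKM, where adding 1 FPKM before the log shrinks the differences between libraries.

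**Figure D3:**
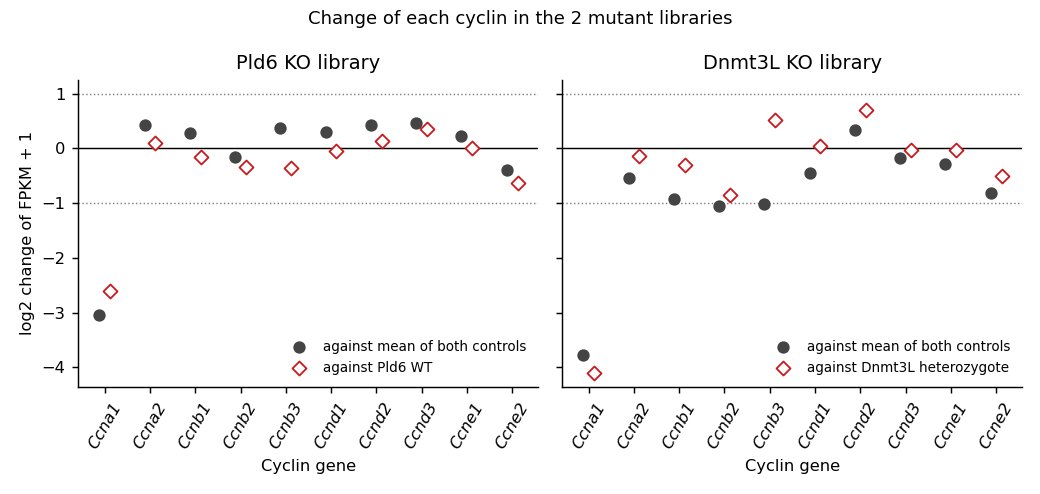
Log2 change of FPKM + 1 for each cyclin in the Pld6 KO and the Dnmt3L KO, against the control mean and against the control of the same line; the dashed lines mark the 2-fold change. Ccna1 lies at -3.04 and -3.77 against the control mean, and against the own-line control the other 9 cyclins lie between -0.84 and 0.70.

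D cyclins couple growth signals to the cell cycle in many cell types, spermatogonia included. Ccnd1, on chromosome 7 at 144929931 to 144939831, was at 23.08 FPKM in the Dnmt3L heterozygote and 23.75 in the Dnmt3L KO, and at 42.39 in the Pld6 WT and 40.77 in the Pld6 KO. Each mutant was almost at the level of its own control, with log2 changes of -0.05 in the Pld6 KO and 0.04 in the Dnmt3L KO. Its pattern was close to that of Ccna2, and this pair had the smallest distance between any 2 cyclins, 0.175. Among the genes closest to Ccnd1 were 4930579K19Rik and Rbm38, at 0.0580 and 0.0653, the first of them at only 1.17 to 3.05 FPKM.

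Ccnd2, on chromosome 6 at 127125162 to 127152188, is the D cyclin known from spermatogonia entering differentiation. It was the lowest D cyclin in every library, with 6.81 FPKM in the Dnmt3L heterozygote and 11.70 in the Dnmt3L KO, beside 11.34 in the Pld6 WT and 12.51 in the Pld6 KO. Both mutants were above both controls, the Dnmt3L KO by only a small margin over the Pld6 WT. Against the control mean the log2 changes were 0.42 in the Pld6 KO and 0.33 in the Dnmt3L KO. These were smaller in size than the difference between the controls (-0.66, heterozygote minus WT). Against the own-line control the changes were 0.13 in the Pld6 KO and 0.70 in the Dnmt3L KO, the latter slightly larger in size than that difference. The additive model gave a mutant change of 0.43 with an adjusted p of 0.490. Ccnd3, on chromosome 17 at 47505051 to 47599689, was at 13.32, 16.17, 12.98 and 20.84 FPKM in the Dnmt3L heterozygote, Pld6 WT, Dnmt3L KO and Pld6 KO. It was highest in the Pld6 KO, with a log2 change of 0.35 against the Pld6 WT, and the 3 other libraries lay close together. Of the summed D cyclin FPKM, Ccnd1 made up 49.0% to 60.6% in the 4 libraries.

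Of the E cyclins, which bind CDK2, Ccne2 was the more abundant in all 4 libraries. Ccne1, on chromosome 7 at 38097984 to 38107490, was at 12.47 FPKM in the Dnmt3L heterozygote and 12.13 in the Dnmt3L KO, and at 17.62 in the Pld6 WT and 17.71 in the Pld6 KO, so that each mutant almost equalled the control of its line. Ccne2, on chromosome 4 at 11190433 to 11204779, had 21.36 FPKM in the Dnmt3L heterozygote and 14.71 in the Dnmt3L KO, beside 31.93 in the Pld6 WT and 20.15 in the Pld6 KO. Both mutants were below both controls, the Pld6 KO only slightly below the Dnmt3L heterozygote. Ccne2 had log2 changes of -0.39 in the Pld6 KO and -0.82 in the Dnmt3L KO against the control mean. After division by the L/Z marker mean these were -0.11 and 0.22. The mutant change of -0.64 in the additive model had an adjusted p of 0.218. Ccne1 accordingly made up 36.9% and 35.6% of E cyclin FPKM in the controls and 45.2% and 46.8% in the Dnmt3L KO and Pld6 KO, a share that does not depend on how the libraries were scaled and was not tested. The closest genes to Ccne2 in pattern were 4632434I11Rik, the histone chaperone gene Asf1b and Tmem194, at 0.0440, 0.0467 and 0.0472.

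Across the 10 genes, 8 in the Pld6 KO and 5 in the Dnmt3L KO lay within 0.5 on the log2 scale of the control of their own line. The share of all genes within 0.5 is not given here, so these counts describe the cyclins only. They hold on the FPKM scale. After division by the L/Z marker mean, Ccna2, Ccnb1, Ccnd1, Ccnd2, Ccnd3 and Ccne1 moved out of this range in the Pld6 KO, to between 0.52 and 0.99. In the Dnmt3L KO, Ccnd1, Ccnd3 and Ccne1 moved out of it, to 0.66, 0.57 and 0.57. Ccne2 moved into it in the Pld6 KO and Dnmt3L KO, to 0.03 and 0.10, and Ccnb2 did so in the Dnmt3L KO, to -0.22. The median log2 change against the own-line control was -0.11 in the Pld6 KO and -0.08 in the Dnmt3L KO, beside 0.0067 and 0.063 over all genes with a mean of at least 1 FPKM. Against the mean of the 2 controls the medians were 0.29 and -0.68, beside -0.05 and -0.02 over all genes. The control mean combines both lines, and the second pair of medians differed in sign between the mutants.

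The line comparison, added after the data were seen, set both Pld6 line libraries against both Dnmt3L line libraries. Ccna2, Ccnb1, Ccnb2, Ccnb3, Ccnd1, Ccnd3 and Ccne1 had higher FPKM in both libraries of the Pld6 line than in either of the Dnmt3L line, 7 of 10 cyclins, whereas Ccna1, Ccnd2 and Ccne2 overlapped. Of 14416 genes with a mean of at least 1 FPKM, 26.2% were higher and 26.1% lower in this way. The same 7 cyclins were separate on TMM-scaled fragments per library, where 25.9% of genes were higher and 26.3% lower. In the additive model only Ccnb3, with a log2 difference of 1.90 and an adjusted p of 0.00602, and Ccnb1, with 1.15 and 0.0219, passed, where 2.42% of all genes tested were higher and 9.28% lower. Ccna2 and Ccnd1 had differences of 0.87 and 0.83 with adjusted p of 0.0604 and 0.0660. The line is confounded with whatever else separated the libraries, and these cannot be told apart.

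The Sertoli markers also differed by line, and other marker lists were less uniform. All 12 Sertoli markers were lower in both Pld6 line libraries, with summed levels of 297 and 692 FPKM in the Pld6 WT and Pld6 KO against 7723 and 10413 in the Dnmt3L heterozygote and Dnmt3L KO. The 12 spermatogonial markers had median levels of 34.7 and 29.2 FPKM in the Pld6 WT and Pld6 KO against 17.0 and 24.5 in the Dnmt3L heterozygote and Dnmt3L KO. They were not uniform: 6 were higher in both Pld6 line libraries and 2, Etv5 and Id4, were lower. Of all genes with a mean of at least 1 FPKM, 26.2% were higher and 26.1% lower. The L/Z markers had geometric means of 148 and 91.5 (FPKM + 1) in the Pld6 WT and Pld6 KO against 82.2 and 52.7 in the Dnmt3L heterozygote and Dnmt3L KO. When each library was divided by its L/Z marker mean, an alternative also added after the data were seen, Ccnb3 was the only cyclin still higher in the Pld6 line, where 1.17% of genes were, with a log2 difference of 1.04. On that scale Ccnb1 came to 0.33, with overlapping lines. Ccnb2, Ccnd3 and Ccne1 turned to -0.17, -0.32 and -0.28, Ccna2 and Ccnd1 came to 0.05 and 0.01, and Ccne2 had lower values in both Pld6 line libraries, as did 47.6% of genes. This scale moved the median line difference of all genes from -0.03 to -0.73. The part of Sertoli RNA in the line difference was not tested beyond this.

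**Figure D4:**
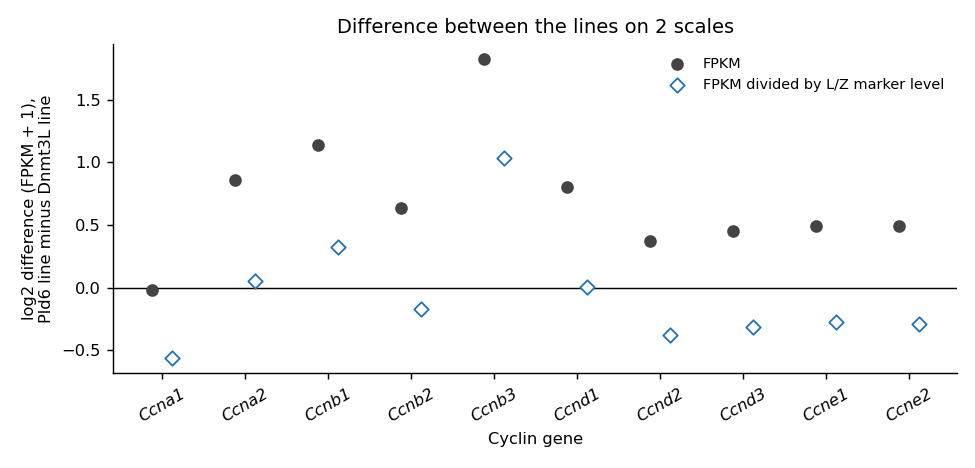
Log2 difference between the Pld6 line and the Dnmt3L line for each cyclin, on the FPKM scale and after division by the L/Z marker mean. On the FPKM scale Ccnb3 (1.83) and Ccnb1 (1.14) lead, and on the L/Z marker scale Ccnb3 remains at 1.04 while 6 of the other 9 cyclins lie below 0.

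As a list, the L/Z markers were themselves lower in the mutants than in the control mean. Their median log2 changes were -0.46 in the Pld6 KO and -1.18 in the Dnmt3L KO. The L/Z marker scale, which divides by these markers, also bears on the mutant calls. It moved the median log2 change of all genes to 0.13 in the Pld6 KO and to 0.92 in the Dnmt3L KO, from -0.05 and -0.02, and turned the calls over all genes from 249 higher and 1297 lower to 594 and 943 in the Pld6 KO, and from 513 higher and 1386 lower to 3783 and 780 in the Dnmt3L KO. Ccna1 was called lower in both mutants on this scale as well. Ccnd2 was called higher in the Dnmt3L KO on this scale, with a log2 change of 1.36, and not on the FPKM scale.

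The partners and regulators of the cyclins were taken as 9 lists with 95 genes, all with a mean of at least 1 FPKM. None was called higher in either mutant, 2 (2.11%) were lower in the Pld6 KO and 5 (5.26%) in the Dnmt3L KO, beside 8.57% and 9.16% of all genes above the same mean level. In the additive model 3 of the 95 genes passed as lower in the mutants, where 6.32% of all genes tested did. The 5 kinase genes held no call in either mutant. Cdk6, a partner of the D cyclins, had the largest log2 change among them, 0.82 in the Pld6 KO, and was at 2.89, 6.60, 3.48 and 9.18 FPKM in the Dnmt3L heterozygote, Pld6 WT, Dnmt3L KO and Pld6 KO. Cdk1, the partner of the B cyclins, was at 45.3, 24.7, 31.1 and 26.5 FPKM in that order, unlike the order of Ccnb1.

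Among 8 inhibitor genes, Cdkn3, a phosphatase that acts on CDKs, was called lower in both mutants. It was at 94.8 and 92.3 FPKM in the Dnmt3L heterozygote and Pld6 WT and at 24.6 and 37.9 in the Dnmt3L KO and Pld6 KO, the controls being nearly equal. The additive model gave a mutant change of -1.65 with an adjusted p of 0.0126. Cdkn2c, an inhibitor of CDK4 and CDK6, was called lower in the Dnmt3L KO only, at 7.40 FPKM against 22.0, 27.0 and 21.0 in the Dnmt3L heterozygote, Pld6 WT and Pld6 KO.

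Of 11 kinase activators and phosphatases, Spdya and Aurka were called lower in the Dnmt3L KO and none in the Pld6 KO. Spdya, an activator of CDK2 that works without a cyclin and is known from telomeres in meiotic prophase, was at 39.8, 69.3, 18.1 and 30.8 FPKM in the Dnmt3L heterozygote, Pld6 WT, Dnmt3L KO and Pld6 KO, with a mutant change of -1.12 and an adjusted p of 0.0332 in the additive model. Aurka, a mitotic kinase, was at 11.4 FPKM in the Dnmt3L KO and between 41.7 and 49.7 in the other libraries. Among 19 other cyclin family and cyclin-associated genes, Cntd1, a cyclin-related crossover factor of pachytene, was called lower in both mutants, at 21.8 and 26.0 FPKM in the Dnmt3L heterozygote and Pld6 WT against 7.77 and 8.48 in the Dnmt3L KO and Pld6 KO. Its additive mutant change was -1.59 with an adjusted p of 0.0124. No gene of the pocket protein and E2F list (13), the MYB and FOXM1 list (8), the cyclin degradation list (11), the replication licensing list (10) or the mitotic proliferation list (10) was called in either mutant.

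By line, 54 of the 95 genes (56.8%) had higher FPKM in both Pld6 line libraries, beside 26.2% of all genes, and 12 (12.6%) had lower, beside 26.1%. The lists were not alike: the kinases had 1 higher and 3 lower, the inhibitors 2 higher and 4 lower, and the other 7 lists more higher than lower genes. The share was largest in the mitotic proliferation list, where all 10 genes were higher and 7 passed in the additive model. Mki67, the marker of cycling cells, was at 25.5, 96.9, 33.3 and 120.0 FPKM in the Dnmt3L heterozygote, Pld6 WT, Dnmt3L KO and Pld6 KO, with a line difference of 1.89 and an adjusted p of 0.00356. Cenpf was at 22.0, 92.2, 28.1 and 87.6 FPKM in that order, with 1.85 and 0.00483. Both were thus higher by line, like Ccnb3 and Ccnb1, and close within each line. In the replication licensing list 8 of 10 genes, and in the degradation list 8 of 11, were higher in both Pld6 line libraries. Against the own-line control the medians of the 9 lists lay between -0.27 and 0.03 in the Pld6 KO and between -0.38 and 0.15 in the Dnmt3L KO.

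Over the 9 lists 13 genes (13.7%) passed by line as higher and 5 (5.26%) as lower in the additive model, beside 2.42% and 9.28% of all genes tested. The genes named here by line were chosen after their values were seen. Foxm1 and Mybl2, factors that drive the mitotic genes, were higher in the Pld6 line with differences of 1.14 (adjusted p of 0.0225) and 1.05 (0.0373). Ccnf, a cyclin with an F-box, was higher with 1.57 (0.00694). The inhibitors Cdkn1b, Cdkn2d and Cdkn1a were lower in the Pld6 line, by -1.79 (0.0109), -1.49 (0.0124) and -1.65 (0.0477), whereas Cdkn2c, Cdkn1c and Cdkn2a had differences of 0.90, 0.80 and 0.50 that did not pass. The pocket protein gene Rbl2 and the cyclin gene Ccnjl were lower by -2.71 (0.00128) and -1.99 (0.0298). The Sertoli marker levels given above differed between the same libraries, and their part in these differences was not tested.

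**Figure D5:**
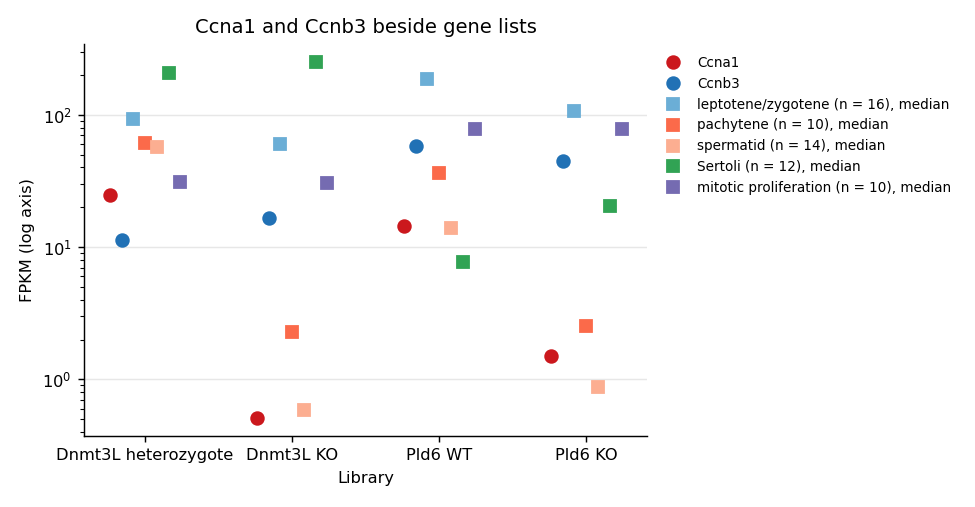
Levels of Ccna1 and Ccnb3 in FPKM on a log axis in the 4 libraries. Beside them are the median FPKM of the L/Z, pachytene, spermatid, Sertoli and mitotic proliferation lists. Ccna1 and the pachytene and spermatid medians are lower in both mutants than in both controls. The mitotic proliferation median is 31.2 and 30.7 FPKM in the Dnmt3L heterozygote and Dnmt3L KO. It is 77.5 and 78.1 in the Pld6 WT and Pld6 KO, and Ccnb3 is likewise higher in the Pld6 line.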

How the data were processed

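PolyA(+) RNA of 4 FACS-purified L/Z spermatocyte libraries was sequenced by the authors as stranded 50-bp single-end reads. They aligned to mm10 with TopHat2 and ran Cuffdiff; versions, annotation and strand setting are not given in the sources used here. The deposited tables give FPKM, normalised by the authors with Cuffdiff. They also give an estimated count of fragments per gene, made by the authors with Cuffdiff and not normalised, of which 97.28% to 97.45% of values per library were whole (within 1e-06); these were rounded. Fragments per library exceed the read numbers stated in the study's methods, for a reason not known here, so counting intervals may be too narrow. Where Cuffdiff marked an estimate as failed (31 values in 28 genes, no cyclin), it was left as deposited.

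Groups follow the genotype labels, with the Dnmt3L heterozygote (control replicate 1) and Pld6 WT (control replicate 2) as controls. Main results used log2(FPKM + 1). edgeR 4.0.16 (R 4.3.3; quasi-likelihood test, TMM, filterByExpr, Benjamini-Hochberg over all genes tested at 0.05) was the main test and DESeq2 1.42.0 an alternative; the fits were tested on simulated counts. Model p-values measure only the spread between these libraries, which may be technical. The members were taken by symbol, but they and the lists were chosen with earlier results of these data known. Named genes were the 10 cyclins, up to 4 genes a list (those called, then the largest log2 changes), the 3 genes nearest in pattern to the most abundant cyclin of each class (1 of them not reported here), and Pld6 and Dnmt3l. Genes named by line fall outside this rule. The line comparison, additive model, L/Z marker scale and searches for Ccna1 and Ccnb3 were added after seeing the data. Positions and promoters are RefSeq's (GRCm38.p6); 6 of 10 cyclins had a promoter entry.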

Additional observations from a re-analysis of the deposited data

Results flagged for a closer look

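In 5 cyclins the mutant of 1 line was above its own control and the mutant of the other line below it, each on 1 library per genotype, so the difference was not tested. The largest gap was in Ccnb3, with a log2 change of -0.36 in the Pld6 line and 0.51 in the Dnmt3L line, a difference of -0.87. Ccnd3 had 0.35 and -0.03, a difference of 0.38. Ccna2 had 0.11 and -0.13, a difference of 0.24. Ccnd1, with -0.05 and 0.04 (difference -0.094), and Ccne1, with 0.0066 and -0.04 (difference 0.043), lay close to 0 in both lines. The opposite signs depend on the scale. The L/Z marker mean (FPKM + 1) was 91.5 in the Pld6 KO against 148 in the Pld6 WT. It was 52.7 in the Dnmt3L KO against 82.2 in the Dnmt3L heterozygote. Division by it therefore raised mutant levels relative to the own-line control, whatever the gene. On that scale all 5 genes were above their own control in both lines, with log2 changes from 0.32 to 1.13. With TMM scaling Ccne1 was below its own control in both, at -0.06 and -0.04.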

How the results depend on the processing

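The replicate numbers only name the 2 controls and give no pairs, and each mutant has 1 library. The only pairing available was that by line, meaning here the gene named in the genotype label. The line, which the genotype labels give, was a term of the additive model added after seeing the data, in which Ccna1 had an adjusted p of 0.00343, against 0.221 and 0.122 without it. Calls past 2-fold of both controls numbered 249 higher and 1297 lower in the Pld6 KO and 513 and 1386 in the Dnmt3L KO. With a pseudocount of 0.1 FPKM they were 989, 2297, 1233 and 2360, at 3-fold 50, 854, 90 and 877, and on the L/Z marker scale, added after seeing the data, 594, 943, 3783 and 780. With either control left out they ranged from 1124 to 1330, 1548 to 3209, 719 to 2891 and 1970 to 2099. edgeR passed 0 genes in both mutants with TMM and with RLE scaling; without the filter it passed 8 higher and 429 lower in the Pld6 KO and 6 and 423 in the Dnmt3L KO, and DESeq2 passed 15 and 949, and 17 and 925. Ccna1 had adjusted p of 0.128 and 0.0480 without the filter and 0.257 and 0.146 with RLE, in the Pld6 KO and Dnmt3L KO. Leaving a control out of edgeR left no residual degree of freedom, so it was not tested. Of 20 cyclin changes, 8 differed in sign on the L/Z marker scale, 3 without each control, and 0 with TMM scaling or the smaller pseudocount; the line differences of Ccnb2, Ccnd3 and Ccne1 reversed to -0.17, -0.32 and -0.28 on the L/Z marker scale. The cause was not tested. Depth limits Ccna1 in the mutants, where 33 and 65 fragments were counted.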
